A study of Mus musculus with 6 samples.

Results

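The genes of antigen presentation and of the interferon response were followed by RNA sequencing in 3 mesenchymal populations of mouse back skin. The populations were dermal sheath (DS), the smooth muscle-like layer around the follicle, dermal papilla (DP), the cell cluster at the follicle base, and dermal fibroblasts (DF) of the surrounding dermis. All were sorted by flow cytometry from female CD1 mice at postnatal day 16, early in the regression phase of the hair cycle, with 2 biological replicates per population. The labels name no mutation, transgene or agent, and they do not state the sort markers. Genes were taken by symbol: those beginning with H2-, Ifit, Oas, Gbp or Irgm, the numbered Irf and Stat genes of interferon signalling, Psmb8, Psmb9, Tap1, Tap2, and B2m. Of the 24529 genes listed, 98 symbols matched, 10 of these were listed at 0 in every library, and the other 88 are the members described here.

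MHC class I molecules hold a peptide between a heavy chain, encoded by H2 genes in mice, and the light chain beta-2 microglobulin, and show it to CD8 T cells. The peptides are cut by the proteasome, whose inducible subunits include Psmb8 and Psmb9, and are carried into the endoplasmic reticulum by the transporter Tap1-Tap2. Class II molecules present endocytosed material and are mainly made by dendritic cells, macrophages and B cells. Interferons act through JAK kinases and STAT factors, and with the IRF factors these switch on antiviral genes and much of the class I pathway. The hair follicle is known for low class I display in its growth phase, which is often described as immune privilege.

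Values are the authors' RPKM (read numbers scaled to gene length and library total), so levels of different genes can be set side by side per length. Differences are given as log2(RPKM + 1), DS minus DF, DP minus DF and DS minus DP, with the moderated standard error and a two-sided adjusted p from limma. A gene is called at an adjusted p under 0.05 with an absolute difference of at least 1, and the difference understates the change of genes at a few RPKM. Relative sequencing depth, read from the steps of the lowest values, was 0.417 and 0.497 in DS, 0.672 and 0.532 in DP and 0.696 and 1 in DF, so the DS libraries were the shallowest. The scaling of the libraries matters here: the median of all tested genes was 0.53 above DF in DS and 0.71 above DF in DP, and became 0.0031 and 0.016 after median-ratio scaling, which sets the median gene level. Calls that depend on this scaling are named beside their values. The populations carried their own markers, with summed DS markers at 4871 and 4875 RPKM in DS, 162 and 169 in DP and 87.1 and 114 in DF, and summed DP markers at 677 and 687 RPKM in DS, 4930 and 5624 in DP and 79.1 and 131 in DF. In such bulk samples, fewer cells of a type and less RNA per cell cannot be told apart.

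The members did not move as a block. Of the 58 members that reached 1 RPKM in at least 2 libraries, 6 were called higher and 5 lower in DS than in DF, where 20.6% of all 14664 tested genes were called higher and 5.95% lower. The DP libraries had 12 members called higher and 6 lower than DF, against 31.5% and 6.87% of all genes. Between DS and DP, 8 members were higher and 10 lower in DS, against 9.42% and 12.8% of all genes. As shares of the tested members these were 10.3% and 8.62% for DS against DF, 20.7% and 10.3% for DP against DF, and 13.8% and 17.2% for DS against DP.

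The median member difference was 0.12 for DS minus DF, against 0.53 over all genes, and -0.13 for DP minus DF, against 0.71 over all genes. For DS minus DP it was -0.04, against -0.17 over all genes. After median-ratio scaling the member counts were 3 higher and 7 lower for DS against DF (8.01% and 9.93% of all genes), 4 higher and 20 lower for DP against DF (9.33% and 13% of all genes), and 11 higher and 8 lower for DS against DP (11.5% and 9.81% of all genes). The scaling thus decides whether more members were called above DF or below it in DP, while the median member lay below 0 in DP minus DF in both scalings. The 30 members not tested were low in every library, the highest value being 2.37 RPKM for Ifitm6 in DS replicate 2. They include 8 of the 10 Oas genes, Ifit1 and 5 of the 10 class II genes. At the other end, 24 members averaged 10 RPKM or more in at least 1 population.

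**Figure D1:**
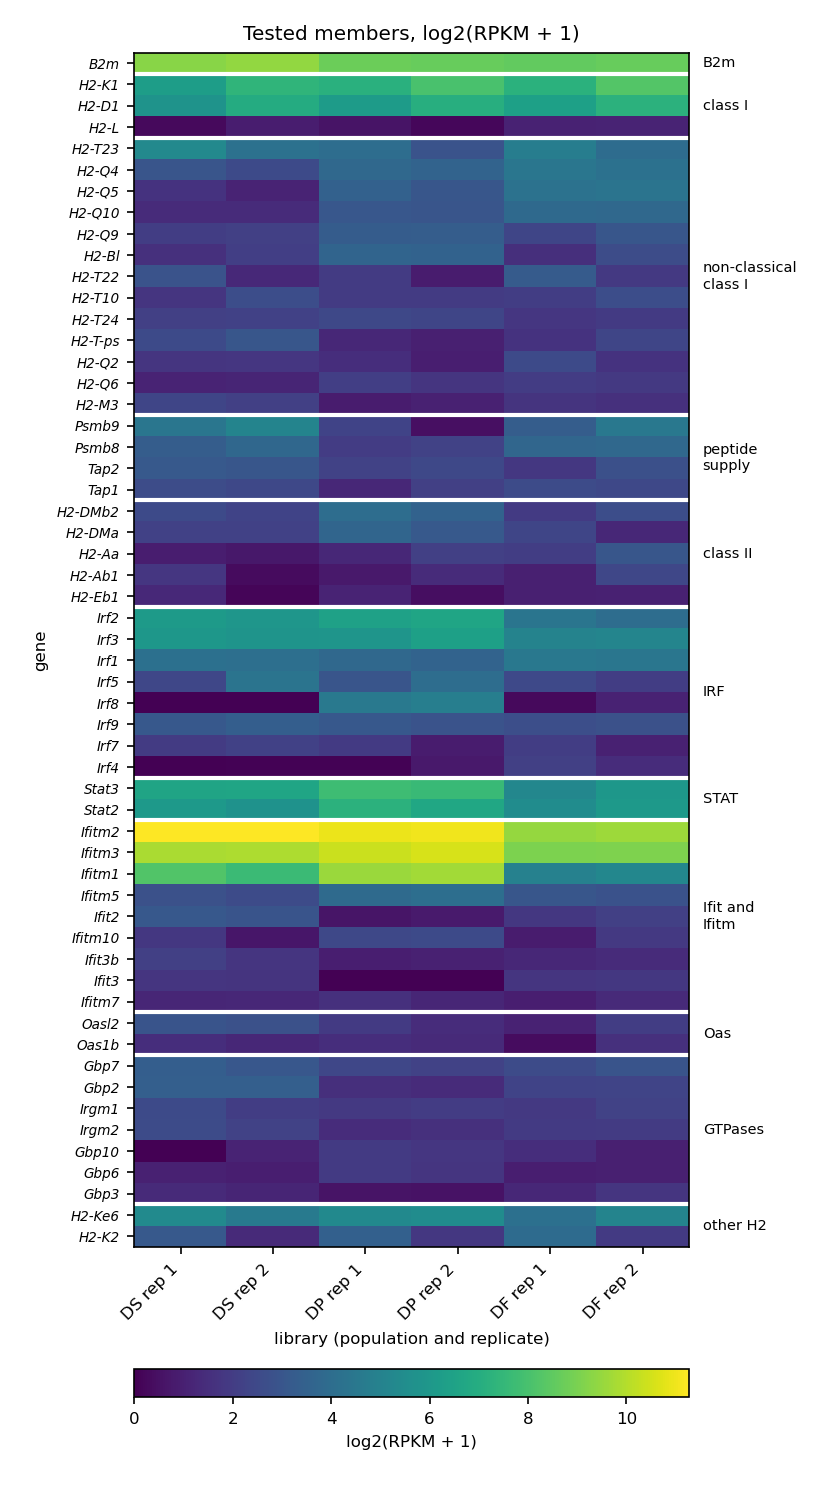
Level of tested members, as log2(RPKM + 1), in the 2 libraries of DS, DP and DF, with members grouped by role. Ifitm2 and Ifitm3 are the most abundant members in every population, while Irf8 is dark in both DS libraries and Ifit3 in both DP libraries.

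The light chain and the classical heavy chains H2-K1 and H2-D1 were abundant in all 3 populations, and none of them passed the call rule in any comparison of the deposited values. B2m (gene ID 12010) stood at 612 and 686 RPKM in DS, 421 and 401 in DP and 382 and 400 in DF. Its DS values lay above all others, with differences of 0.73 ± 0.12 (SE) over DF (adjusted p 0.00636) and 0.66 ± 0.12 over DP (adjusted p 0.0104), both under the fold minimum; median-ratio scaling gave 0.09 and 0.87. For DP minus DF, B2m differed by 0.07 (adjusted p 0.636) as deposited and by -0.78 after that scaling, a change of sign.

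H2-K1 (gene ID 14972), a classical heavy chain, had 77.5 and 164 RPKM in DS, 143 and 264 in DP and 144 and 308 in DF. The other classical chain, H2-D1, had 54.4 and 122 RPKM in DS, 70.9 and 133 in DP and 82.8 and 151 in DF. The populations overlapped for both, and replicate 2 was the higher library each time. Within each replicate number, both genes were lowest in DS and highest in DF. The differences for H2-K1 were -0.90 ± 0.54 in DS against DF (adjusted p 0.218), -0.12 ± 0.54 in DP against DF (adjusted p 0.86) and -0.78 ± 0.54 in DS against DP (adjusted p 0.313). For H2-D1 they were -0.45, -0.20 and -0.25 in the same order, each ± 0.52. These standard errors include the difference between replicates. With the replicate number as a block, H2-K1 in DS against DF had adjusted p 0.00902, still under the fold minimum. The replicate numbers did not pair the libraries over all genes. After median-ratio scaling DS minus DF was -1.53 for H2-K1 (adjusted p 0.0717) and -1.09 for H2-D1 (adjusted p 0.159), neither called. H2-L, a further classical gene absent from many strains, stayed at or under 1.2 RPKM and was called only in DP against DF and only under another scaling (-1.06, lower in DP, after median-ratio scaling).

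This split between replicates was shared by 5 H2 genes. H2-K1 was lower in replicate 1 than in replicate 2 by 1.07 on the log2 scale in DS, 0.88 in DP and 1.09 in DF, and H2-D1 by 1.15, 0.90 and 0.86. The other 3 ran the opposite way. H2-T22 had 6.49 and 1.48 RPKM in DS, 2.93 and 0.79 in DP and 8.41 and 2.60 in DF. H2-T23, which encodes Qa-1, a ligand of an inhibitory receptor of natural killer cells, had 38.7 and 17.3 RPKM in DS, 15.1 and 6.43 in DP and 26.6 and 14.9 in DF. H2-K2 had 7.83 and 1.5 RPKM in DS, 10.1 and 2.54 in DP and 14.5 and 2.77 in DF, so replicate 1 was higher for all of these in every population. Over all tested genes, 35 of 14664 (0.239%) differed by at least 0.8 in the same direction in all 3 populations. Among tested members these were 5 of the 23 H2 members (21.7%) and 0 of the 35 others. The pattern was noticed in these same values, and the limit of 0.8 just admits H2-T23 in DF, at 0.801. The shares therefore describe the values and are no separate test. These 5 H2 genes were the only ones on chromosome 17, where the H2 complex lies, among the 35 genes found over all.

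**Figure D2:**
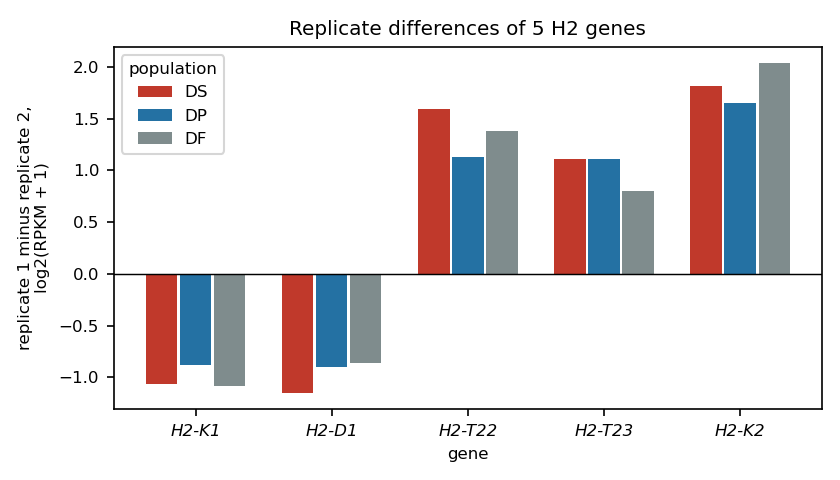
Difference between replicate 1 and replicate 2, in log2(RPKM + 1), of 5 H2 genes, with 1 bar each for DS, DP and DF. Bars below 0 show that H2-K1 and H2-D1 are higher in replicate 2, and bars above 0 that H2-T22, H2-T23 and H2-K2 are higher in replicate 1 in all 3 populations.

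Among the non-classical class I genes, H2-Q4, H2-Q5, H2-Q9 and H2-Q10 of the Q region were lowest in DS. H2-Q2 of the same region was lowest in DP, with 2.31 and 2.47 RPKM in DS, 1.77 and 0.93 in DP and 4.84 and 2.11 in DF. The non-classical genes encode less variable or more restricted relatives of the classical chains. Of 20 such members 13 were tested, with 0 higher and 3 lower in DS than in DF (20.6% and 5.95% of all genes). In DP, 1 was higher and 1 lower than in DF (31.5% and 6.87% of all genes). Between DS and DP, 2 were higher and 4 lower in DS (9.42% and 12.8% of all genes). H2-Q10, which encodes a secreted class I molecule known mainly from liver, had 1.61 and 1.58 RPKM in DS, 7.26 and 6.79 in DP and 13.3 and 13.0 in DF. H2-Q5 had 2.17 and 1.15 RPKM in DS, 10.2 and 7.12 in DP and 18.1 and 19.1 in DF. H2-Q4 had 6.84 and 4.77 RPKM in DS, 13.2 and 11.1 in DP and 20.5 and 17.3 in DF. For each of these the order was DS under DP under DF with no overlap of libraries.

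Relative to DF, DS fell by 2.91 ± 0.28 for H2-Q5 (adjusted p 0.00118), by 2.44 ± 0.18 for H2-Q10 (adjusted p 0.00051) and by 1.56 ± 0.23 for H2-Q4 (adjusted p 0.00451). DS was also below DP for H2-Q5 (-1.87 ± 0.28, adjusted p 0.00538), H2-Q10 (-1.63 ± 0.18, adjusted p 0.00177) and H2-Q9 (-1.21 ± 0.26, adjusted p 0.0199). In DP against DF only H2-Q5 of these Q genes was called, at -1.04 ± 0.28 (adjusted p 0.0234). After median-ratio scaling 6 of the 13 tested non-classical genes were called lower in DP and 0 higher, H2-Q10 and H2-Q4 among the lower ones. Over all genes 13% were then lower and 9.33% higher. H2-M3, which presents formylated peptides, had 4.07 and 3.44 RPKM in DS, 0.83 and 1.05 in DP and 2.21 and 1.99 in DF, and was called higher in DS than in DP (1.29 ± 0.20, adjusted p 0.00602). H2-Bl had 1.92 and 3.23 RPKM in DS, 11.4 and 10.5 in DP and 1.89 and 5.06 in DF. It was called higher in DP than in DF (1.52 ± 0.40, adjusted p 0.0221) and lower in DS than in DP (-1.77 ± 0.40, adjusted p 0.0224). H2-T-ps was higher in DS than in DP (1.63 ± 0.32, adjusted p 0.0145), with 4.74 and 7.0 RPKM in DS against 1.39 and 0.99 in DP.

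These genes resemble each other closely. Of the 50-base words, 36.5% in H2-Q5 transcripts, 36.4% in H2-Q4 and 19.1% in H2-Q10 also occur in another gene. A read can thus be split between them, and their separate levels are uncertain. H2-Q9 had no transcript in this count. Calls lost when 1 library was left out were H2-Q5 in DP against DF (adjusted p 0.0849 to 0.112), H2-Q9 (0.0796 to 0.0946) and H2-T-ps (0.0611 to 0.0821) in DS against DP, and H2-Bl in both of its comparisons (0.0688 to 0.0966 against DF, 0.0532 to 0.112 for DS against DP); for H2-Bl against DF median-ratio scaling also ended the call, at 0.82, and the difference was 0.98 without DF replicate 1.

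The inducible proteasome subunits were lowest in DP. Psmb8 (gene ID 16913) stood at 9.0 and 12.6 RPKM in DS, 2.99 and 3.64 in DP and 12.3 and 13.0 in DF. Psmb9 (gene ID 16912) stood at 20.7 and 32.5 RPKM in DS, 3.89 and 0.39 in DP and 9.17 and 21.7 in DF. Both DP libraries lay below all 4 others for each gene. Psmb8 fell in DP by 1.67 ± 0.23 relative to DF (adjusted p 0.00281) and was higher in DS than in DP by 1.44 ± 0.23 (adjusted p 0.00647). Psmb9 fell in DP by 2.54 ± 0.69 (adjusted p 0.0239) and was higher in DS than in DP by 3.37 ± 0.69 (adjusted p 0.0163). DS minus DF was -0.23 ± 0.23 for Psmb8 (adjusted p 0.442) and 0.83 ± 0.69 for Psmb9 (adjusted p 0.361).

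The transporter genes were called in no comparison of the deposited values. Tap1 had 5.21 and 4.46 RPKM in DS, 1.38 and 3.46 in DP and 4.88 and 4.52 in DF, with DP below DF by -0.81 ± 0.33 (adjusted p 0.0817); after median-ratio scaling this was -1.46 (adjusted p 0.0221) and called. Tap2 had 7.99 and 7.11 RPKM in DS, 3.65 and 4.46 in DP and 2.60 and 5.66 in DF, with a difference of 0.80 ± 0.33 in DS against DF (adjusted p 0.0972). The Psmb9 calls rest on few libraries: without 1 of DF replicate 1, DF replicate 2 or DP replicate 2, DP against DF had adjusted p 0.0526 to 0.120 (-1.64 without DP replicate 2), and without DP replicate 2 or 1 of the DS libraries, DS against DP had 0.0533 to 0.0815.

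Of 10 other genes of class I assembly, which the symbol rule leaves out, 4 were higher and 1 lower in DS than in DF (20.6% and 5.95% of all genes). In DP, 1 was higher and 3 lower than in DF (31.5% and 6.87% of all genes). Between DS and DP, 3 were higher and 1 lower in DS (9.42% and 12.8% of all genes). After median-ratio scaling these counts were 0 and 1 (8.01% and 9.93% of all genes), 1 and 5 (9.33% and 13%), and 4 and 1 (11.5% and 9.81%). Tapbp, the tapasin chaperone that links class I to the transporter, had 49.1 and 47.5 RPKM in DS, 12 and 11.6 in DP and 32.8 and 29.4 in DF, and fell in DP by 1.32 ± 0.14 relative to DF (adjusted p 0.00137). Psmb10, the remaining inducible proteasome subunit, had 50.1 and 42.1 RPKM in DS, 14.6 and 4.72 in DP and 44.1 and 37.8 in DF, a fall of 2.15 ± 0.46 in DP (adjusted p 0.0116, and 0.0741 without DF replicate 1). Nlrc5, the transactivator of class I genes, ran opposite to these, with 0.13 and 0.38 RPKM in DS, 11.6 and 9.61 in DP and 1.30 and 2.82 in DF. It was higher in DP than in DF by 1.97 ± 0.31 (adjusted p 0.00429) and lower in DS than in DP by 3.21 ± 0.31 (adjusted p 0.00106). It was also lower in DS than in DF by 1.25 ± 0.31 (adjusted p 0.0229), a call lost without DS replicate 1, DS replicate 2 or DF replicate 2 (adjusted p 0.0584 to 0.103).

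**Figure D3:**
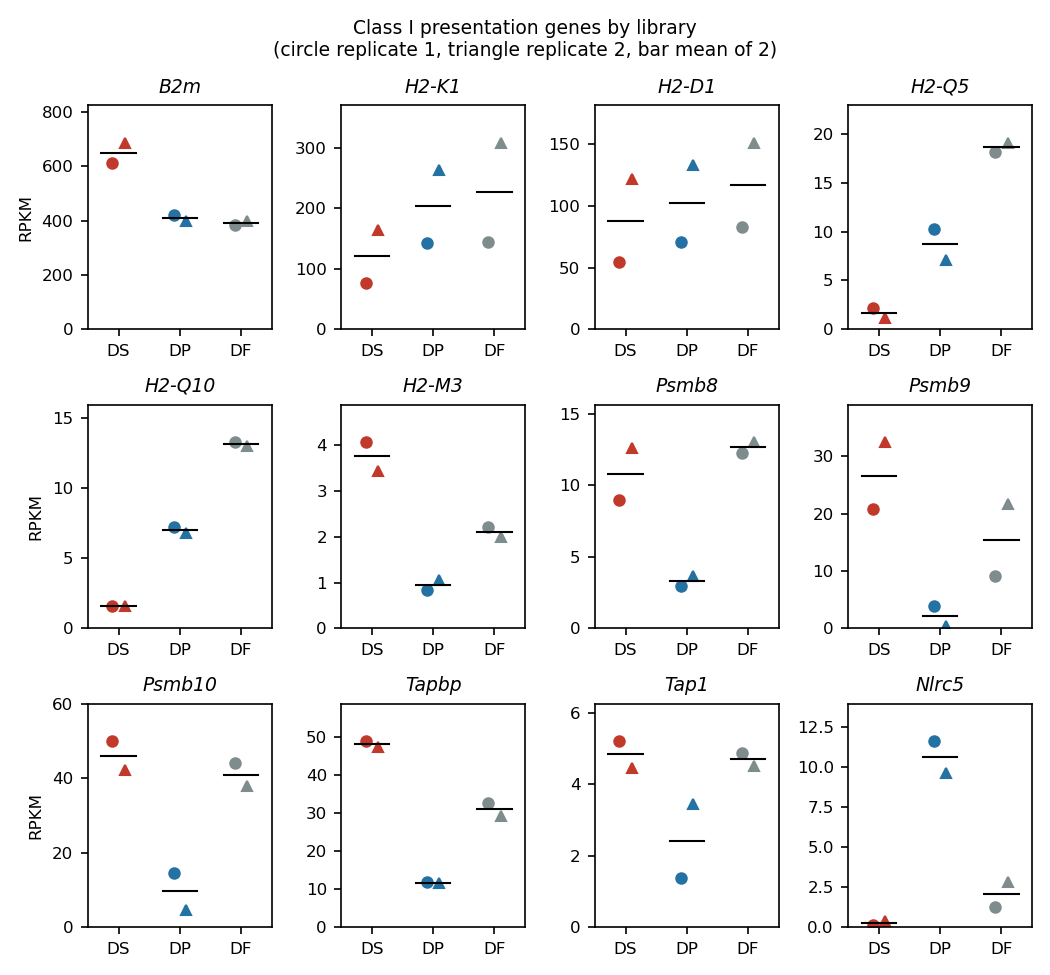
RPKM of 12 genes of class I presentation in DS, DP and DF, with circles for replicate 1, triangles for replicate 2 and bars for the mean of the 2 libraries. DP is lowest for Psmb8, Psmb9, Psmb10 and Tapbp and highest for Nlrc5, whereas H2-Q5 and H2-Q10 are lowest in DS.

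The class II chains H2-Aa, H2-Ab1 and H2-Eb1 were low in all 3 sorts. The chains H2-Aa and H2-Ab1 reached at most 7.19 and 4.26 RPKM, both in DF replicate 2, and H2-Eb1 at most 1.44 RPKM. H2-Aa had 0.87 and 0.64 RPKM in DS, 1.37 and 3.36 in DP and 3.14 and 7.19 in DF, and was lower in DS than in DF by -1.73 ± 0.44 (adjusted p 0.0248). The peptide exchange genes showed another order. H2-DMa had 3.47 and 3.54 RPKM in DS, 11.9 and 7.76 in DP and 4.13 and 1.39 in DF. H2-DMb2 had 4.84 and 3.75 RPKM in DS, 15.3 and 10.5 in DP and 2.76 and 5.25 in DF. Both DP libraries were the highest for each, with DP above DF by 1.60 ± 0.41 for H2-DMa (adjusted p 0.0199) and 1.5 ± 0.33 for H2-DMb2 (adjusted p 0.0124), and H2-DMb2 in DS was below DP by -1.38 ± 0.33 (adjusted p 0.0269).

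Cd74, the invariant chain, and Ciita, the class II transactivator, lie outside the rule and were low as well. Cd74 lay between 0.646 RPKM in DS replicate 2 and 5.78 RPKM in DF replicate 2, and Ciita between 0.249 and 0.91 RPKM. Of 21 leukocyte markers, 12 were tested. Of these, 1 was higher and 7 lower in DS than in DF, against 20.6% and 5.95% of all genes. In DP, 1 was higher and 9 lower than in DF, against 31.5% and 6.87% of all genes. The summed level of the 21 markers was 29.4 to 30.8 RPKM in DS, 21.9 to 22.9 in DP and 57.5 to 78.5 in DF. Ptprc, the pan-leukocyte marker, had 0.02 and 0.04 RPKM in DS, 0.16 and 1.41 in DP and 0.29 and 0.60 in DF, and Csf1r, the macrophage growth factor receptor, had 1.16 and 0.58 in DS, 2.54 and 1.04 in DP and 10.1 and 8.47 in DF. Aif1, named after its values were seen, was the marker called higher in both, with 5.46 and 10.5 RPKM in DS, 7.91 and 5.64 in DP and 1.14 and 2.52 in DF. H2-Aa and the sum of the leukocyte markers were both highest in DF; the part of leukocyte RNA in the H2-Aa difference was not tested. Median-ratio scaling ended the DP calls for H2-DMa (0.91) and H2-DMb2 (0.77) against DF. Without 1 library, calls were lost for H2-Aa (adjusted p 0.0792 to 0.101), H2-DMa (0.104 without DP replicate 1; its difference was 1.05 without DF replicate 2) and H2-DMb2 (0.0545 to 0.0709 against DF, 0.0608 to 0.139 for DS against DP).

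Interferon genes themselves were low, and receptor and kinase genes were called only in comparisons with DP. Of 8 tested, 3 were higher and 1 lower in DP than in DF (31.5% and 6.87% of all genes). After median-ratio scaling 1 was higher and 3 lower (9.33% and 13%). Between DS and DP, 1 was higher and 1 lower in DS (9.42% and 12.8%). Between DS and DF, 0 were higher and 0 lower (20.6% and 5.95%). Of 10 ligand genes 5 were listed at 0 in every library, and their sum was 0.224 to 0.617 RPKM in DS, 1.79 to 1.96 in DP and 0.251 to 0.402 in DF. Most of the DP sum was Ifnk, a type I interferon known from keratinocytes, with 0.17 and 0.14 RPKM in DS, 1.61 and 1.74 in DP and 0.09 and 0.33 in DF. It was called higher in DP than in DF (1.15 ± 0.19, adjusted p 0.00516; not called after median-ratio scaling) and lower in DS than in DP (-1.21 ± 0.19, adjusted p 0.0067). Ifngr1, the ligand-binding chain of the type II interferon receptor, had 54.7 and 57.0 RPKM in DS, 13.2 and 9.96 in DP and 34.9 and 43.7 in DF. It fell in DP by 1.68 ± 0.20 relative to DF (adjusted p 0.0018) and was higher in DS than in DP by 2.19 ± 0.20 (adjusted p 0.000882). Jak2, a kinase of that receptor and of many cytokine receptors, had 11.1 and 11.4 RPKM in DS, 64.5 and 60.1 in DP and 8.40 and 9.07 in DF, a rise of 2.70 ± 0.15 in DP over DF (adjusted p 0.000228). Of 7 tested feedback inhibitors of interferon signalling, 4 were higher and 1 lower in DP than in DF (31.5% and 6.87%). In DS the calls against DF were 2 up and 2 down (20.6% and 5.95%). Median-ratio scaling gave 2 up and 1 down in DP (9.33% and 13%), and 0 up and 3 down in DS (8.01% and 9.93%). Usp18 had 0.31 and 1.47 RPKM in DS, 0.73 and 0.34 in DP and 4.44 and 6.00 in DF. Socs1 had 0.59 and 0.84 RPKM in DS, 1.43 and 1.59 in DP and 2.08 and 2.41 in DF. Socs3, a feedback inhibitor induced by STAT3, had 4.49 and 4.80 RPKM in DS, 77.2 and 78.4 in DP and 16.6 and 16.3 in DF. Its differences were -1.63 ± 0.14 in DS against DF (adjusted p 0.000894), 2.18 ± 0.14 in DP against DF (adjusted p 0.000329) and -3.80 ± 0.14 in DS against DP (adjusted p 6.98e-05).

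The STAT factors Stat2 and Stat3 were highest in DP. Stat3 (gene ID 20848), which mainly serves cytokines of the interleukin 6 family, had 94.0 and 96.6 RPKM in DS, 218 and 198 in DP and 36.5 and 61.2 in DF. DP exceeded DF by 2.12 ± 0.25 (adjusted p 0.00181) and DS lay below DP by -1.12 ± 0.25 (adjusted p 0.0209). Stat2, a factor of type I interferon signalling, had 67.5 and 52.0 RPKM in DS, 152 and 103 in DP and 43.1 and 68.0 in DF. DP was above DF by 1.19 ± 0.30 (adjusted p 0.0190) and DS was below DP by -1.06 ± 0.30 (adjusted p 0.0439).

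These STAT calls depended on single libraries in several cases. Stat2 was lost in DP against DF (0.0929 to 0.0957 without DF replicate 1 or DP replicate 1) and Stat2 and Stat3 in DS against DP without any 1 of the 4 libraries (0.0641 to 0.195 and 0.0803 to 0.111); median-ratio scaling gave 0.35 for Stat2 and 1.3 for Stat3 in DP against DF, and -0.85 for Stat2 and -0.91 for Stat3 in DS against DP.

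Among the IRF factors, Irf8 separated the papilla from the other populations. Irf8 (gene ID 15900), a factor best known from macrophages and dendritic cells, had 22.4 and 27.1 RPKM in DP and 0.23 and 1.08 in DF, and was listed at 0 in both DS libraries. It was higher in DP than in DF by 4.0 ± 0.30 (adjusted p 0.000469), and DS was below DP with adjusted p 0.000288. The summed leukocyte markers were lower in DP than in DF, and of 12 tested, 1 was called higher and 9 lower (31.5% and 6.87% of all genes). Aif1, Ptprc and several other markers averaged more in DP than in DF, the lymphocyte genes Cd3e and Cd79a among them. Cd3e had 1.08 and 0.72 RPKM in DP and 0.21 and 0.46 in DF. Cd79a had 0.59 and 0.88 RPKM in DP and 0.25 and 0.11 in DF. The summed endothelial markers were 12.7 to 34.0 RPKM in DS, 62.9 to 77.4 in DP and 15.1 to 18.2 in DF. In DP against DF, 4 of 10 tested endothelial and 4 of 14 keratinocyte markers were called higher and 0 lower, against 31.5% and 6.87% of all genes. After median-ratio scaling the counts were 2 higher and 1 lower, and 1 higher and 0 lower, against 9.33% and 13% of all genes. The part of these cell types in the genes high in DP was not tested. Irf4, a factor of lymphocytes, dendritic cells and melanocytes, had 0.02 and 0.04 RPKM in DS, 0.05 and 0.70 in DP and 3.34 and 1.73 in DF. DF was the only population above 1 RPKM, with differences of -1.74 ± 0.33 in DS (adjusted p 0.0107) and -1.37 ± 0.33 in DP (adjusted p 0.0173). Dct, a melanocyte gene, was also highest in DF, at 0.30 and 0.17 RPKM in DS, 0.42 and 0.33 in DP and 5.13 and 10.4 in DF. The summed melanocyte and Schwann cell markers were 4.80 to 12 RPKM in DS, 24.3 to 31.4 in DP and 17.7 to 35.8 in DF; their part in the Irf4 difference was not tested.

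Irf2, which competes with Irf1 at the same sites, had 70.0 and 60.4 RPKM in DS, 85.1 and 96.6 in DP and 20.0 and 15.6 in DF. Both follicle populations lay above DF, by 1.82 ± 0.18 in DS (adjusted p 0.00123) and 2.30 ± 0.18 in DP (adjusted p 0.000508). Irf1, itself induced by interferon gamma, ran the other way, with 16.7 and 16.3 RPKM in DS, 12.8 and 10.9 in DP and 22.1 and 20.3 in DF, and was called in no comparison of the deposited values. After median-ratio scaling Irf1 was lower in DP than in DF by -1.59 (adjusted p 0.00262), against -0.79 as deposited. Irf3, the constitutive factor activated by nucleic acid sensors, had 62.0 and 55.3 RPKM in DS, 58.0 and 82.7 in DP and 32.1 and 33.5 in DF, and was called higher in DP than in DF by 1.06 ± 0.20 (adjusted p 0.00754). Irf5, Irf7 and Irf9 were called in no comparison. Irf9, the DNA-binding subunit of the type I interferon response complex, lay between 5.51 and 9.24 RPKM in all libraries. Irf5, a factor downstream of Toll-like receptors, had 4.25 and 19.3 RPKM in DS, 6.76 and 15.3 in DP and 4.61 and 3.14 in DF. Irf7, the inducible amplifier of type I interferon, had 2.83 and 3.60 RPKM in DS, 2.75 and 0.83 in DP and 3.11 and 1.04 in DF. The Irf3 call was lost after median-ratio scaling (0.22) and without DP replicate 2 (0.80), and the Irf4 calls were lost without DF replicate 1, DS replicate 1 or DP replicate 1 (adjusted p 0.050 to 0.0526 for DS, 0.0785 to 0.0804 for DP).

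The Ifitm genes, whose membrane proteins block virus entry, held the most abundant members, and Ifitm1 and Ifitm2 were called higher in both follicle populations than in DF. Ifitm1 had 299 and 202 RPKM in DS, 773 and 826 in DP and 29.9 and 36.8 in DF. Ifitm2 had 2458 and 2470 RPKM in DS, 1968 and 2057 in DP and 706 and 797 in DF. Ifitm3 had 915 and 950 RPKM in DS, 1317 and 1538 in DP and 534 and 550 in DF. No library overlapped between populations for any of the 3 genes, with DP highest for Ifitm1 and Ifitm3 and DS for Ifitm2. Ifitm1 rose by 2.85 ± 0.22 in DS over DF (adjusted p 0.000593) and by 4.55 ± 0.22 in DP over DF (adjusted p 0.000168), and was lower in DS than in DP by -1.70 ± 0.22 (adjusted p 0.00324). Ifitm2 rose by 1.71 ± 0.12 in DS over DF (adjusted p 0.000484) and by 1.42 ± 0.12 in DP over DF (adjusted p 0.000691), and Ifitm3 by 1.39 ± 0.13 in DP over DF (adjusted p 0.000829). Ifitm5, known from bone, had 6.02 and 4.93 RPKM in DS, 13.8 and 16 in DP and 7.18 and 6.06 in DF, with DS below DP by -1.30 ± 0.20 (adjusted p 0.00638). Median-ratio scaling left Ifitm1 and Ifitm2 called in DS (2.23 and 1.07) and Ifitm1 in DP (3.71), but ended the DP calls for Ifitm2 (0.57), Ifitm3 (0.54) and Ifitm5 (0.29) against DF; the Ifitm5 call there also ended without DF replicate 2 or DP replicate 2 (0.96). Of the 50-base words of Ifitm2, 48.5% occur in another gene, most often in the predicted gene Gm45717.

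The Ifit genes, induced sensors of foreign RNA, were represented by Ifit2 and Ifit3, both lowest in DP. Ifit2 had 7.50 and 6.59 RPKM in DS, 0.53 and 0.76 in DP and 2.60 and 3.43 in DF. Ifit3 had 2.32 and 2.28 RPKM in DS and 2.37 and 2.58 in DF, and was listed at 0 in both DP libraries. Both DP libraries lay below all others for each. Ifit2 was higher in DS than in DP by 2.29 ± 0.22 (adjusted p 0.00103), lower in DP than in DF by -1.28 ± 0.22 (adjusted p 0.00539) and higher in DS than in DF by 1.01 ± 0.22 (adjusted p 0.0151). Ifit3 was lower in DP than in DF (adjusted p 0.00111) and higher in DS than in DP (adjusted p 0.00145). Since 51.2% of its 50-base words occur in Ifit3b, the pair cannot be fully separated, and Ifit3b had 3.43 and 2.37 RPKM in DS, 0.91 and 1.03 in DP and 1.39 and 1.61 in DF. The Ifit2 call in DS against DF ended after median-ratio scaling (0.50) and without DF replicate 1 or 1 of the DS libraries (adjusted p 0.0535 to 0.0730).

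The interferon-induced GTPases and Oas genes were at a few RPKM. Gbp2, a guanylate-binding protein that attacks pathogen vacuoles, had 9.55 and 9.78 RPKM in DS, 1.85 and 1.62 in DP and 3.84 and 3.98 in DF, without overlap. It was higher in DS than in DP by 1.96 ± 0.18 (adjusted p 0.00102) and than in DF by 1.12 ± 0.18 (adjusted p 0.00667). Of the 7 tested GTPase members, Gbp2 was the only one called as deposited. After median-ratio scaling Gbp2, Gbp3, Gbp7 and Irgm2 were lower in DP than in DF, at -1.04 to -1.47, and 0 were higher (13% and 9.33% of all genes). Between DS and DP, Gbp7 was then called beside Gbp2, so 2 were higher in DS and 0 lower (11.5% and 9.81% of all genes). Gbp6 and Gbp10 lay above DF in DP, uncalled, by 0.85 (adjusted p 0.0124) and 0.61 (adjusted p 0.232) as deposited. After median-ratio scaling these were 0.34 and 0.05. Oasl2, an interferon-induced relative of the RNA-degradation trigger genes, had 6.52 and 5.94 RPKM in DS, 2.81 and 1.69 in DP and 1.11 and 3.16 in DF, and was higher in DS than in DF by 1.29 ± 0.38 (adjusted p 0.039). In DS against DF, median-ratio scaling ended the calls for Gbp2 (0.58) and Oasl2 (0.84), and the Oasl2 call ended without any 1 library of the 5 other than DF replicate 2 (adjusted p 0.0616 to 0.132; 0.80 without DF replicate 1). The Oasl2 call ended under 11 of the 15 alternatives tried.

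**Figure D4:**
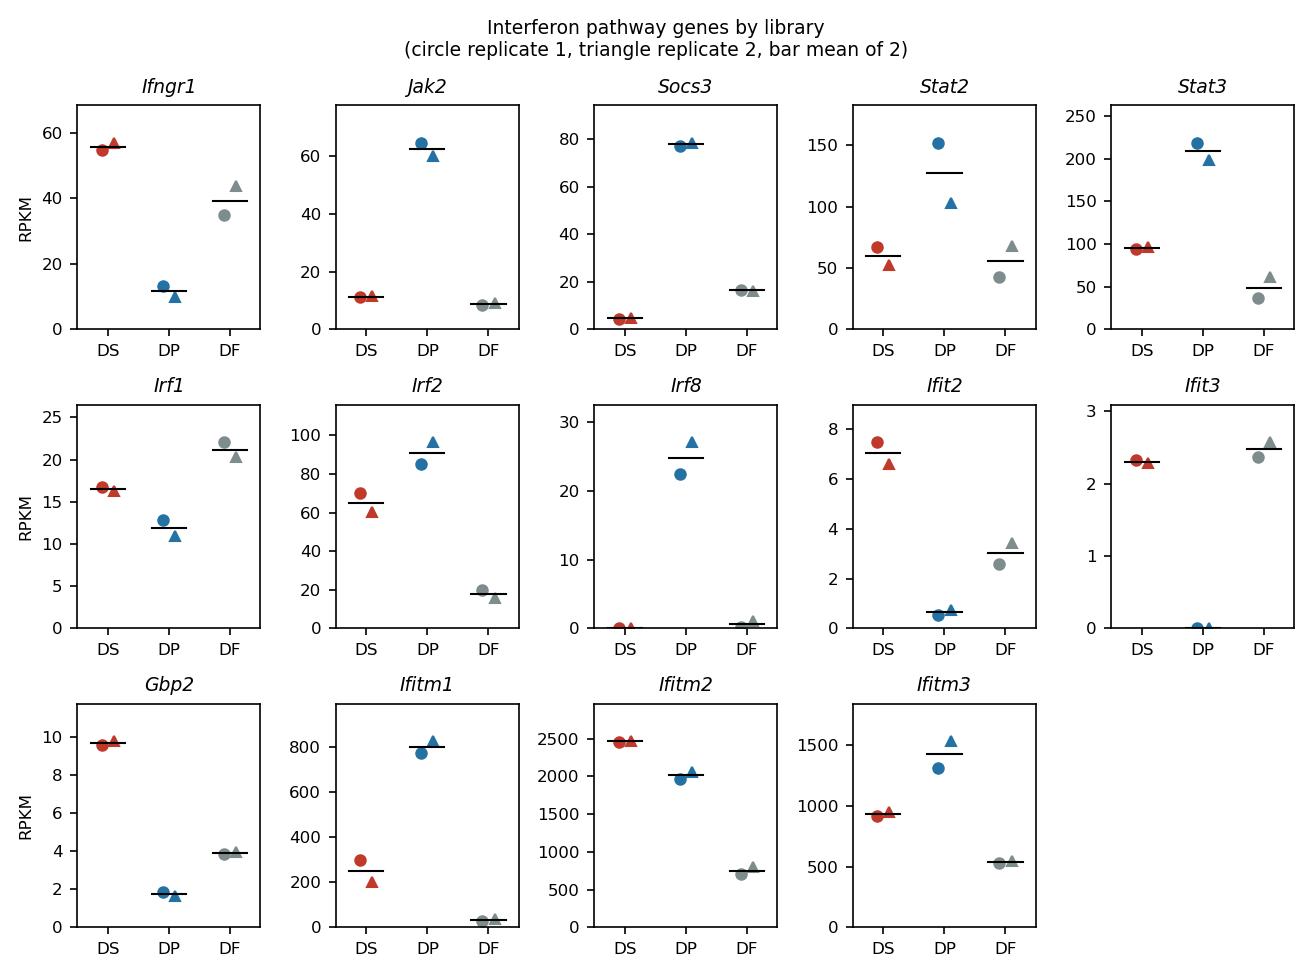
RPKM of 14 genes of interferon signalling and response in DS, DP and DF, with circles for replicate 1, triangles for replicate 2 and bars for the mean of the 2 libraries. Ifit2 and Gbp2 are highest in DS, and Stat3, Irf8 and Ifitm1 are highest in DP.

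Of a list of 40 other interferon-induced genes, 35 were tested. In DS, 5 were higher and 2 lower than in DF, against 20.6% and 5.95% of all genes. In DP, 1 was higher and 9 lower than in DF, against 31.5% and 6.87% of all genes. Between DS and DP, 10 were higher and 1 lower in DS, against 9.42% and 12.8% of all genes. After median-ratio scaling the counts were 3 higher and 4 lower in DS against DF (8.01% and 9.93% of all genes). For DP against DF they became 1 higher and 15 lower (9.33% and 13% of all genes). For DS against DP they became 11 higher and 1 lower (11.5% and 9.81% of all genes). Isg20, an exonuclease that degrades viral RNA, had 80.2 and 65.2 RPKM in DS, 4.16 and 3.07 in DP and 9.17 and 17.7 in DF, with DS above DP by 4.0 ± 0.33 (adjusted p 0.000657) and above DF by 2.41 ± 0.33 (adjusted p 0.00359). Samhd1, which lowers the nucleotide supply of viruses, was higher in DS than in DF by 2.49 ± 0.20 (adjusted p 0.00069). Cd274, the inhibitory ligand PD-L1, was the 1 gene higher in DP than in DF, with 2.92 and 4.11 RPKM in DS, 17.3 and 14.4 in DP and 0.85 and 2.02 in DF (2.83 ± 0.31, adjusted p 0.00145). Isg15, a ubiquitin-like protein, had 9.86 and 1.68 RPKM in DS, 5.10 and 5.24 in DP and 1.30 and 4.93 in DF, and its libraries overlapped.

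**Figure D5:**
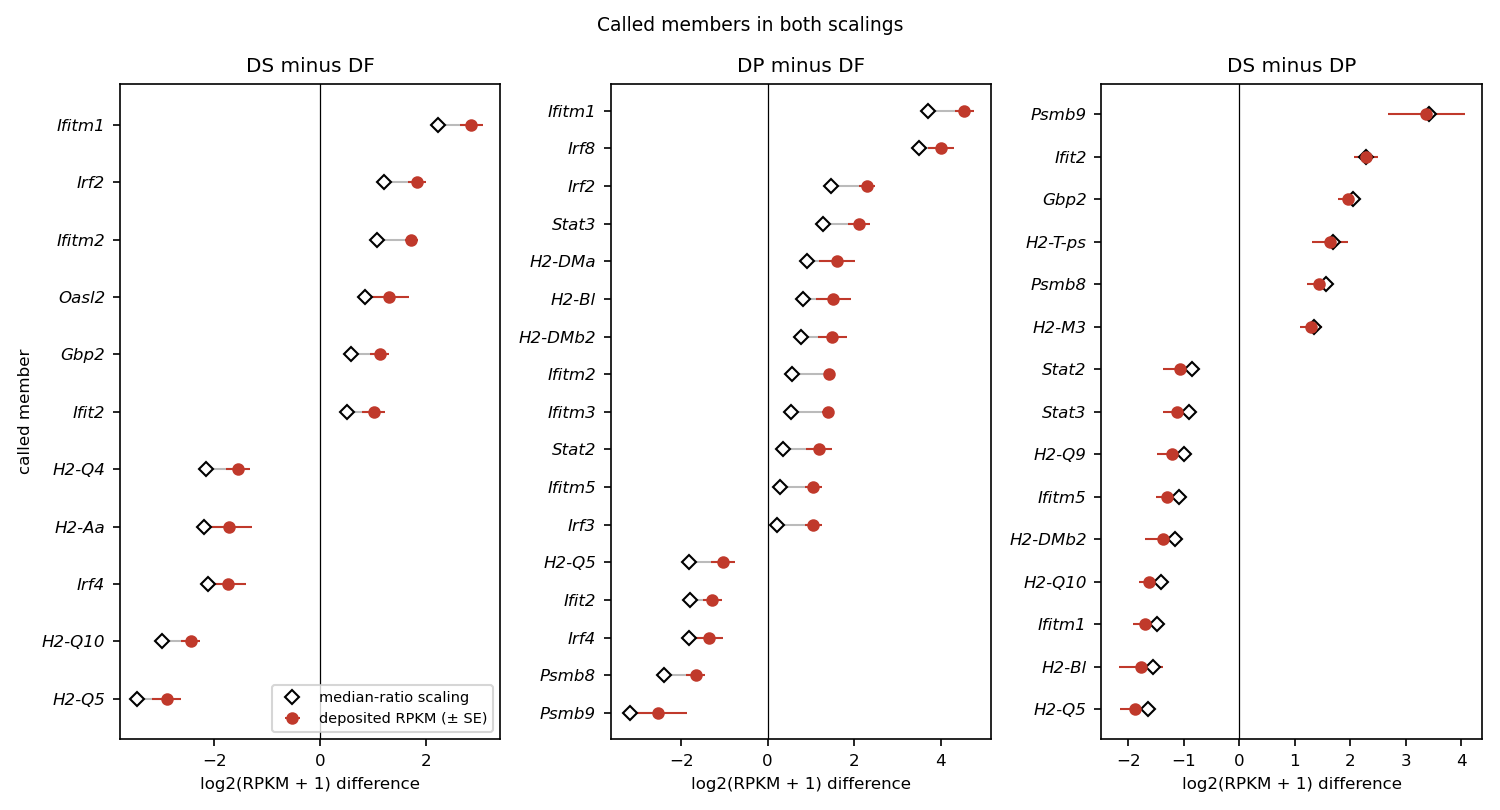
Differences in log2(RPKM + 1) of called members for DS minus DF, DP minus DF and DS minus DP, as deposited and after median-ratio scaling, with bars of 1 SE on the deposited values. Values for Ifit3 and Irf8 are left out where a population is listed at 0, and several DP minus DF differences above 1, such as that of Ifitm3, move under it after scaling.

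The promoters of 4 members are printed because their genes stood out in DS or DP and carry short motifs of the pathway. Each runs 250 bases before to 50 after the RefSeq start in GRCm38.p6, 5′ to 3′ on the gene's strand, with matches in capitals. The motifs searched on both strands were the core of the interferon-stimulated response element (ISRE), spelled TTTC, any 2 bases and TTTC, the STAT dimer site (GAS), spelled TTCNNNGAA, and a form of the NF-kappa-B site, spelled GGG, any 4 bases and CCC. The windows are chr17:34197945-34198244 for Psmb8, chr19:34583279-34583578 for Ifit3, chr3:142620413-142620712 for Gbp2 and chr8:120736108-120736407 for Irf8, all on the plus strand.
Psmb8: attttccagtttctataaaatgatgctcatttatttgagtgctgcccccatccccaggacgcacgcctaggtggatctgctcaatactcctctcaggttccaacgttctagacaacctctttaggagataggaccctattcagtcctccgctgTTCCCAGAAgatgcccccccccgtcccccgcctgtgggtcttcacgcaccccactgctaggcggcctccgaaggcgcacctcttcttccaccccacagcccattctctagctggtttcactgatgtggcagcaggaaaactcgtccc
Ifit3: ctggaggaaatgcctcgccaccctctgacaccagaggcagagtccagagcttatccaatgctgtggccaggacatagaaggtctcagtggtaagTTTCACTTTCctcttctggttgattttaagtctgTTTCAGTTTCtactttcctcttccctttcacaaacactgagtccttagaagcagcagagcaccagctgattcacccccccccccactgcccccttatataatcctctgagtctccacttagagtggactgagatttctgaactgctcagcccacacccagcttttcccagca
Gbp2: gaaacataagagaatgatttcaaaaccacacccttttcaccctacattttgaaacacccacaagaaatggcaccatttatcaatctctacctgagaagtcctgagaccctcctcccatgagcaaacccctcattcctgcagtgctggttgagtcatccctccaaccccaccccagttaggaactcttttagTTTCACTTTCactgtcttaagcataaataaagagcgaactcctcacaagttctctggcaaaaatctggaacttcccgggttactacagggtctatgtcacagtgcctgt
Irf8: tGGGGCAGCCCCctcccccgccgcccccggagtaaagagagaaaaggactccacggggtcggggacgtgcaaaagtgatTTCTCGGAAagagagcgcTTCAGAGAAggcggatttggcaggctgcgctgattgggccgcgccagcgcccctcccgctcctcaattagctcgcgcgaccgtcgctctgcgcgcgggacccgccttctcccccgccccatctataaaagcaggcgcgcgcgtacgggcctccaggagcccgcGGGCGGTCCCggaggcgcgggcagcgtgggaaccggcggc

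Psmb8, low in DP, holds 1 GAS match that begins 97 bases before the start. Ifit3, listed at 0 in DP, holds ISRE matches 156 and 122 bases before the start, and Gbp2, highest in DS, holds 1 at 59 bases before it. Irf8, highest in DP, holds GAS matches 171 and 153 bases before the start and 3 NF-kappa-B matches, of which the 2 at 249 and 248 bases before the start overlap and the other lies 11 bases after it. Promoters were found for 66 of the 88 members, and 23 of these (34.9%) hold the ISRE core, against 3.49% of all 27025 promoters. The GAS pattern occurs in 13 (19.7%, against 8.47% of all) and the NF-kappa-B pattern in 15 (22.7%, against 11.6% of all). The ISRE share is no separate test, since the symbols chosen include families already known as interferon-induced. The promoters are also not all independent, as the windows of Ifit1 and Ifit1bl2 overlap and hold the same matches. Among members with the ISRE core, Ifit3 was called lower in DP than in DF, and Irf2, Stat2, Ifitm2 and Ifitm3 were called higher. Some members with the core, such as Ifit1 and Oas3, were not tested. Over all tested genes 31.5% were called higher there and 6.87% lower, so these calls are not read as a trait of the motif. After median-ratio scaling Irf2 was the only member with the core called higher in DP than in DF. Ifit3, Gbp2, Gbp3, Gbp7 and Irgm2 were then called lower, where 9.33% of all genes were higher and 13% lower. A match describes the sequence and does not show that a factor binds there.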

How the data were processed

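RNA from sorted cells (6 ng) was amplified with the NuGEN Ovation system and sequenced, per the labels. The authors deposited RPKM per gene and library, and Salmon 1.9.0, DESeq2 1.28.1 and the build GRCm39 appear, without roles, in the submitters' processing notes. Neither the annotation nor the number of reads is stated in the labels. Whole reads could not be recovered for most genes, so no counting intervals are given. All 6 libraries (biological replicates, per the labels) entered 1 model of log2(RPKM + 1) in limma 3.58.1 (R 4.3.3; trend, 3 residual and 2.62 prior degrees of freedom) over 14664 genes that reached 1 RPKM in 2 or more libraries, with Benjamini-Hochberg adjustment over all of them. The procedure was tested on simulated data. The members and gene lists were chosen with earlier results of these data known. Some members are counted but not reported by name here.

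Named are B2m, the classical chains, Psmb, Tap, Stat and Irf genes, in each comparison the 12 called members with the largest difference, members shown with a replicate split or a family, and at most 4 called genes of each other list plus Nlrc5, Ciita, Cd74, Ifngr1, Isg15, Ptprc and Csf1r; Dct was picked by the same rule. Cd3e, Cd79a, Usp18 and Socs1 were named after their values were seen, as was Aif1. Alternatives were another pseudocount, filter, scaling, variance model, replicate block, call rule, a fit of 2 groups and leaving out each library. Promoters came from RefSeq (GRCm38.p6). Shared 50-base words were counted in GENCODE mouse transcripts for 85 of the 88 members.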

Additional observations from a re-analysis of the deposited data

How the results depend on the processing

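No called member changed sign under any alternative run. Of the 47 member calls, 26 held whichever 1 library was left out, 34 held after median-ratio scaling and 36 after setting library sums equal without the 100 highest genes. Members called higher in DS than in DF numbered 6 as reported, 3 after median-ratio scaling, 3 after the equal-sum scaling and 11 with no fold minimum. Members called lower there numbered 5, and 3 with a filter at 5 RPKM. In DP against DF, members called higher numbered 12, and 4 under each scaling, while members called lower numbered 6 as reported, 20 after median-ratio scaling, 18 after the equal-sum scaling, 10 with a pseudocount of 0.1 and 11 with no fold minimum. All genes called there numbered 5620 as reported, 3279 after median-ratio scaling, 3379 after the equal-sum scaling and 8642 with no fold minimum. In DS against DF all genes called numbered 3899, and 6558 with no fold minimum. In DS against DP, members called higher numbered 8, and 5 with the filter at 5 RPKM, which leaves low members untested.

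Leaving out 1 library in turn gave 2998 to 4406 genes in DS against DF, with 4 to 8 members higher and 3 to 5 lower. It gave 4262 to 6231 genes in DP against DF, with 8 to 13 members higher and 5 to 6 lower. It gave 2447 to 3200 genes in DS against DP, with 6 to 9 members higher and 5 to 11 lower. A fit with the replicate number as a block called 3838, 5591 and 3163 genes in DS against DF, DP against DF and DS against DP, and 5 and 5, 12 and 7, and 9 and 8 members higher and lower. The numbers did not pair the libraries over all genes, the correlations of deviations being -0.07 for DS and DF, -0.05 for DP and DF and -0.03 for DS and DP. Under that block H2-K1 in DS against DF had -0.90 with adjusted p 0.00902, the ratio of DS to DF being 0.537 in replicate 1 and 0.531 in replicate 2. H2-T22 was newly called under it in DP against DF (-1.13, adjusted p 0.0163) and H2-T23 in DS against DP (1.30, adjusted p 0.00955), and 3 calls ended: Oasl2 in DS against DF, and H2-DMb2 and Stat2 in DS against DP. The cause of the changes with scaling was not tested. With 2 libraries per population, the precision of each difference rests on few libraries, and the DS libraries were the shallowest.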
